A study of Mus musculus with 10 samples.

Results

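The slow-twitch muscle programme, represented by 10 genes, was followed in the inguinal white adipose tissue (iWAT) of C57BL/6 mice. The genes are Myh7, Myl2, Myl3, Tnnt1, Tnni1, Tnnc1, Atp2a2, Casq2, Tpm3 and Myoz2, taken by name, and all 10 were found among the 51826 genes listed for every library. RNA-seq had been done on 10 male mice, 1 library each, with directional libraries made after rRNA depletion and paired reads of 36 bases. The F0 generation consisted of 2 males fed a control diet (CD) and 2 fed a low-protein diet (LPD) from weaning until 10–12 weeks of age. The F1 generation consisted of 3 offspring of CD fathers and 3 offspring of LPD fathers (pLPD offspring), killed at 5 weeks of age and themselves fed the CD. All came from a colony kept on the CD for 2 generations, and the 3 F1 mice of a group had 3 different mothers. Age, generation and the set of libraries coincided, so the F0 and F1 levels cannot be compared without all 3.

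Slow-twitch fibres contract slowly, resist fatigue and rely on oxidative metabolism. They differ from fast fibres in the isoforms of nearly every sarcomere protein: the myosin motor and its light chains in the thick filament, the troponin complex and tropomyosin on the thin filament, and the pump and buffer that return calcium to the sarcoplasmic reticulum. Fat cells make none of the sarcomere isoforms in quantity, but a dissected fat pad can carry muscle fibres, and 2 of the 10 genes, Atp2a2 and Tpm3, also have products in most other cell types. Exon reads per library were between 6351075 and 10044546, and 3 reads, the level below which a gene cannot be told from absent, corresponded to 0.299 to 0.472 counts per 1000000 (CPM). Adipocyte markers were abundant, as 7 of them, with Adipoq and Plin1, summed to between 12268 and 20831 CPM in every mouse. The levels of 12 genes common to all skeletal muscle fibres (Acta1, Ttn, Ckm and others) summed to 3150 to 5008 CPM in the CD-fed males, 1534 to 2010 CPM in the LPD-fed males, 292 to 487 CPM in F1 mice with CD fathers and 201 to 446 CPM in pLPD offspring. Fewer muscle fibres and less muscle RNA per fibre cannot be told apart in such bulk samples.

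The F0 comparison asked what the diet did to the iWAT of the males that ate it. Myh7, Myl2, Tnnc1, Tnnt1 and Myoz2 were down-regulated in the LPD-fed males, by 11.1 to 52.0 times in summed reads, whereas the summed reads of the CD-fed males were 1.08 times those of the LPD-fed males for Atp2a2 and 0.965 times for Tpm3. None of the 10 genes was up-regulated. Over all 14581 genes tested in F0, 1.32% were called lower and 1.18% higher. Of the 10 members, 8 had passed the filter on low counts through the CD-fed males alone, so those members had to be lower in the LPD-fed males to some degree, and the count of 5 is a description. Without that filter 7 of the 10 genes were called lower, Myl3 and Tnni1 in addition, against 3.22% of 22064 genes.

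The largest differences were those of Myh7 and Myl2, both of the thick filament. Myh7 (ENSMUSG00000053093, mm10 chr14:54970688-54994634, minus strand), the slow and beta-cardiac myosin heavy chain, had 157 and 225 exon reads in the CD-fed males and 5 and 2 in the LPD-fed males. The level was 20.0 ± 3.47 CPM (SD, n = 2) in the CD-fed and 0.380 ± 0.206 CPM (n = 2) in the LPD-fed males, and no LPD-fed male came near a CD-fed one. The log2 fold change was -5.65 (SE 0.33, edgeR quasi-likelihood F test, adjusted p = 0.000758), and the summed reads were 52.0-fold lower (95% counting interval 25.0 to 130.3). Myl2 (ENSMUSG00000013936, mm10 chr5:122100951-122113472, plus strand), the regulatory light chain that binds this heavy chain, had 35 and 53 reads in the CD-fed males and 1 read in each LPD-fed male. Its level went from 4.61 ± 0.973 to 0.111 ± 0.00841 CPM (n = 2 each), a log2 fold change of -5.22 (SE 0.55, edgeR adjusted p = 0.0051), and the ratio of summed reads was 42.0 with a counting interval of 11.3 to 352. With 2 reads in all, the LPD-fed males set hardly any upper limit on that ratio. Myl3 (ENSMUSG00000059741, mm10 chr9:110741861-110769798, plus strand), the slow essential light chain, had 22 and 19 reads in the CD-fed and 5 and 0 in the LPD-fed males. The groups did not overlap, which was fixed because Myl3 passed the filter on low counts through the CD-fed males alone. Its log2 fold change of -2.92 (SE 0.74) missed the threshold in edgeR (adjusted p = 0.0822). The ratio of its summed reads was 7.82 (3.09 to 25.4). Myoz2 (ENSMUSG00000028116, mm10 chr3:123006206-123035015, minus strand), a Z-disc protein that binds calcineurin in slow fibres, had 20 and 38 reads in the CD-fed and 3 and 2 in the LPD-fed males. It was down-regulated by 3.40 on the log2 scale (SE 0.56, edgeR adjusted p = 0.0201), or 11.1-fold in summed reads (4.48 to 35.3).

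The 3 slow troponins, which place the calcium switch on the thin filament, had at most 33 reads each in every mouse. Tnnc1 (ENSMUSG00000091898, mm10 chr14:31208312-31211729, plus strand), the calcium-binding subunit of slow and cardiac muscle, had 19 and 22 reads in the CD-fed males against 2 and 0 in the LPD-fed males. Its log2 fold change was -4.13 (SE 0.73, edgeR adjusted p = 0.0269) and the ratio of summed reads 19.5 (5.08 to 167). Only 58.1% of its reads matched uniquely, and on uniquely matching reads the adjusted p was 0.0642 (log2 fold change -3.36). Tnnt1 (ENSMUSG00000064179, mm10 chr7:4504570-4516382, minus strand), which ties the complex to tropomyosin, had 21 and 33 reads in the CD-fed and 4 and 0 in the LPD-fed males, with a log2 fold change of -3.61 (SE 0.71, edgeR adjusted p = 0.0397) and a ratio of summed reads of 12.9 (4.75 to 48.9). Tnni1 (ENSMUSG00000026418, mm10 chr1:135779434-135810989, plus strand), the inhibitory subunit, was the lowest of the 10 genes per kilobase of exon in the CD-fed males. It had 11 and 16 reads in the CD-fed and 2 in each LPD-fed male, and its log2 fold change of -2.61 (SE 0.60) missed the threshold in edgeR (adjusted p = 0.0637), with a ratio of summed reads of 6.44 (2.24 to 25.3). For all 3 troponins both LPD-fed males were below both CD-fed males, as in 23.6% of all genes tested in F0. All 3 had passed the filter on low counts through the CD-fed males alone, which fixed this order, so it is a description. Their folds are known only within wide limits at these counts.

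The 3 remaining genes behaved otherwise. Casq2 (ENSMUSG00000027861, mm10 chr3:102086415-102146514, plus strand), the calsequestrin of slow and cardiac muscle that holds calcium in the sarcoplasmic reticulum, had 11 and 18 reads in the CD-fed and 7 and 5 in the LPD-fed males. The groups did not overlap, which was fixed because Casq2 passed the filter on low counts through the CD-fed males alone. Its log2 fold change was -1.18 (SE 0.49) and the adjusted p in edgeR was 0.284. The ratio of its summed reads was 2.30 (1.14 to 4.96). Atp2a2 (ENSMUSG00000029467, mm10 chr5:122453513-122502225, minus strand), the SERCA2 calcium pump, of which one splice form is slow and cardiac and another is found in nearly all cells, had 1886 and 2207 reads in the CD-fed and 1853 and 1763 in the LPD-fed males. Its levels were 215.8 ± 6.61 and 200.5 ± 8.14 CPM (n = 2 each), and the log2 fold change was -0.11 (SE 0.09, edgeR adjusted p = 0.66). Tpm3 (ENSMUSG00000027940, mm10 chr3:90072649-90100902, plus strand), whose muscle form is the slow alpha-tropomyosin and whose other forms are cytoskeletal, had 1587 and 1642 reads against 1677 and 1514, and its levels were 170.8 ± 9.63 and 176.7 ± 0.624 CPM (log2 fold change 0.05, SE 0.09, edgeR adjusted p = 0.862). The Tpm3 groups overlapped. The deposited gene-level reads do not separate the splice forms of Atp2a2 or Tpm3, and 40.9% of the Tpm3 reads matched uniquely.

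**Figure D1:**
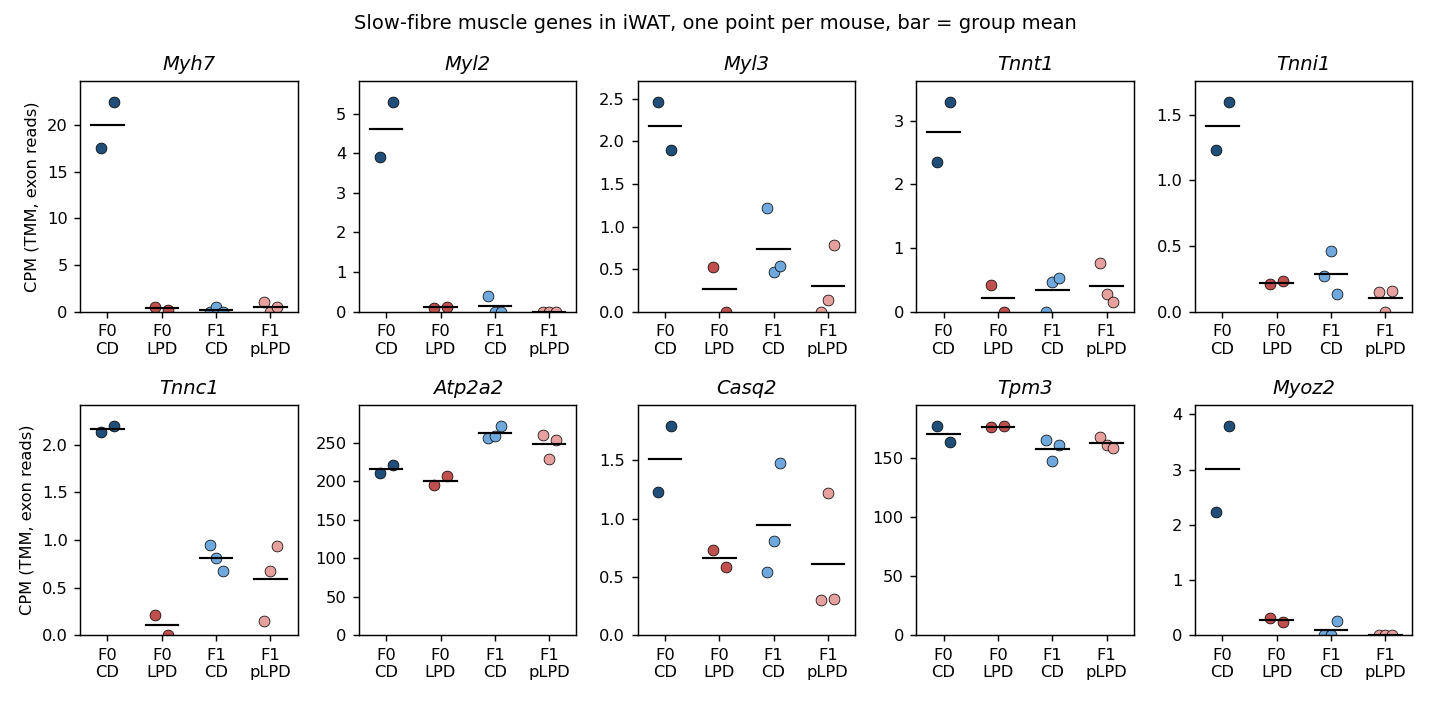
Level of each of the 10 genes in CPM (TMM-normalized exon reads, linear axes starting at 0 with their own scale) in the F0 males fed the CD or the LPD and in the F1 offspring of CD or LPD fathers, with 1 point per mouse and a bar at the group mean. In every panel but that of Tpm3 both CD-fed F0 males lie above both LPD-fed males, an order found in 23.6% of all genes tested in F0. All members but Atp2a2 and Tpm3 passed the filter on low counts through the CD-fed males alone, which fixed this order for them. Of the 8 genes other than Atp2a2 and Tpm3, Casq2 has the narrowest margin. Atp2a2 stays between 195 and 272 CPM and Tpm3 between 148 and 178 CPM in all 10 mice.

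Per kilobase of exon, the 10 genes fell into 2 classes in the CD-fed males. Atp2a2 stood at 18.7 ± 0.847 RPKM (exon reads per kilobase and per library total; SD, n = 2) and Tpm3 at 14.8 ± 0.617 RPKM, both apart from each other and from all others. Myl2 followed at 1.25 ± 0.281, Myh7 at 1.23 ± 0.231 and Tnnc1 at 1.09 ± 0.0414 RPKM, and the values of these 3 overlapped. Tnnt1 (0.676 ± 0.170 RPKM), Myl3 (0.561 ± 0.0947 RPKM) and Myoz2 (0.466 ± 0.176 RPKM) formed a further run of overlapping neighbours. Casq2 at 0.292 ± 0.0814 and Tnni1 at 0.207 ± 0.0410 RPKM had the lowest means and continued this run, since Casq2 overlapped Myoz2 and Tnni1 overlapped Casq2. In the LPD-fed males Casq2, at 0.122 ± 0.0175 RPKM, had the highest mean of the 8 low genes, and Myh7, at 0.0223 ± 0.0117 RPKM, the lowest. The values of Casq2 overlapped those of Myl3, and those of Myh7 overlapped those of Myl2.

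The sensitivity of these calls to single mice was not even. Myh7 and Myl2 remained past the threshold when any 1 of the 4 F0 libraries was left out and under each of 9 other settings that tested them. Leaving out the second CD-fed or the second LPD-fed male left 2 of the 10 genes called, Myh7 and Myl2, and leaving out the first CD-fed male left 3, Myoz2 in addition. Without the first LPD-fed male 5 genes were called, with Myl3 in place of Myoz2. An exact two-sided permutation test of each gene's log2 level cannot give less than 0.333 with 2 mice against 2. That value was reached by 9 of the 10 genes, all but Tpm3, with both LPD-fed males lower. For the 8 genes that passed the filter on low counts through the CD-fed males alone, this order was fixed, so it is a description. Over all genes tested, both LPD-fed males were below both CD-fed males in 23.6% and above both in 22.8%.

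Of the 10 genes, 9 have 300 bases around at least 1 transcription start in the RefSeq promoter table used here (GRCm38.p6, 250 bases before the start and 50 after); Atp2a2 has no entry. The windows of Myh7, Tnnc1, Myoz2 and Casq2 are shown because the first 3 were down-regulated and the fourth did not pass the test, and because each holds a muscle promoter motif. Capitals mark matches, on either strand, of the MCAT element (CATTCC, the site of TEAD factors) and of the MEF2 consensus, the site of the MADS-box factors of muscle.
Myh7 (chr14:54994577-54994876, strand -): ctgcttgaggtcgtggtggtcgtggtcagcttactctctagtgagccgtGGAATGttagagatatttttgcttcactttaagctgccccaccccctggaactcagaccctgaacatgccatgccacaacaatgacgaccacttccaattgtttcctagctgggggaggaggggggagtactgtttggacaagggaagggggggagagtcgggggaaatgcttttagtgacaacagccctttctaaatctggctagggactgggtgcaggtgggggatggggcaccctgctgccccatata
Tnnc1 (chr14:31208062-31208361, strand +): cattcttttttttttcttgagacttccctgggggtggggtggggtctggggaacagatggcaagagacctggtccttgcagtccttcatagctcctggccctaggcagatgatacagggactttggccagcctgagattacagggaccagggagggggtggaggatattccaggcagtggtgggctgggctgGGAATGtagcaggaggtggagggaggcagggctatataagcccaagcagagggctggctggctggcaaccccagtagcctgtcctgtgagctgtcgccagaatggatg
Myoz2 (chr3:123034938-123035237, strand -): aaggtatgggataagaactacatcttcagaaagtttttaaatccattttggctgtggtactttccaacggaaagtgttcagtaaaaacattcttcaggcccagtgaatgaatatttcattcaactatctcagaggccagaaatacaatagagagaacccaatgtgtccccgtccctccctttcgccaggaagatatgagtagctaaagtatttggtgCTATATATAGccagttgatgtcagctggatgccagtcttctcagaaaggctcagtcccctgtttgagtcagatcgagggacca
Casq2 (chr3:102086165-102086464, strand +): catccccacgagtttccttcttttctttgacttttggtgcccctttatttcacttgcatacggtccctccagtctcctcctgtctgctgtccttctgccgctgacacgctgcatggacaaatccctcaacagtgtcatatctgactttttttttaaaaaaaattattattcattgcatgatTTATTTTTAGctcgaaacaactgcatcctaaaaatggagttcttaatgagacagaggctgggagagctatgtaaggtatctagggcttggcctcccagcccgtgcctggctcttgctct
An MCAT match was present in Myh7, Tnnc1 and Myl3, 3 of the 9 genes, and in 14.7% of all 32851 promoter windows. The second annotated start of Myh7 gave a window without one. A MEF2 match was present in Myoz2 and Casq2, 2 of the 9 genes, and in 3.19% of all windows. In Myoz2 that match covers the letters TATATA just before the start, which a TATA box could also hold. Among the 7 fast partners with an entry, MEF2 matched in Myh4 alone and MCAT in Myh4, Myl1 and Tpm1. The E-box CANNTG, the site of the MyoD family, was in all 9 slow and all 7 fast genes and in 72.3% of all windows. Myoz2 and Casq2 both match the MEF2 consensus, with different letters, and had log2 fold changes of -3.40 and -1.18. Each match is a string of letters and not a measured site.

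Each slow gene was set beside the fast-fibre gene for the same protein, to see whether slow and fast isoforms differed alike. The partners were Myh4, Mylpf, Myl1, Tnnt3, Tnni2, Tnnc2, Atp2a1, Casq1, Tpm1 and Myoz1, in the order of the members. Of the 10 partners, 2 were down-regulated in the LPD-fed males, Atp2a1 by 1.47 on the log2 scale (SE 0.25, edgeR adjusted p = 0.0241) and Tnnt3 by 1.24 (SE 0.22, edgeR adjusted p = 0.0288). The other 8 had log2 fold changes from -1.14 to -0.15 that missed the threshold. Over all genes tested in F0, 1.32% were called lower. Without the filter on low counts 9 of the 10 partners and 7 of the 10 slow genes were called, against 3.22% of 22064 genes called lower. In limma 0 of the partners and 3 of the slow genes were called, where 52 of 14581 genes were called lower. The counts therefore do not set the slow genes apart from the fast ones. The median log2 fold change was -3.16 over the 10 slow genes, 8 of which were tested through the CD-fed males alone, -0.84 over the 10 fast partners and 0.00 over all genes tested. Myh4, the fast IIb myosin, had 4281 and 6733 reads in the CD-fed and 3970 and 2515 in the LPD-fed males, a log2 fold change of -0.69 (SE 0.20, edgeR adjusted p = 0.115). Per kilobase it was the most abundant of the 4 skeletal myosin heavy chains Myh7, Myh2, Myh1 and Myh4 in every mouse.

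**Figure D2:**
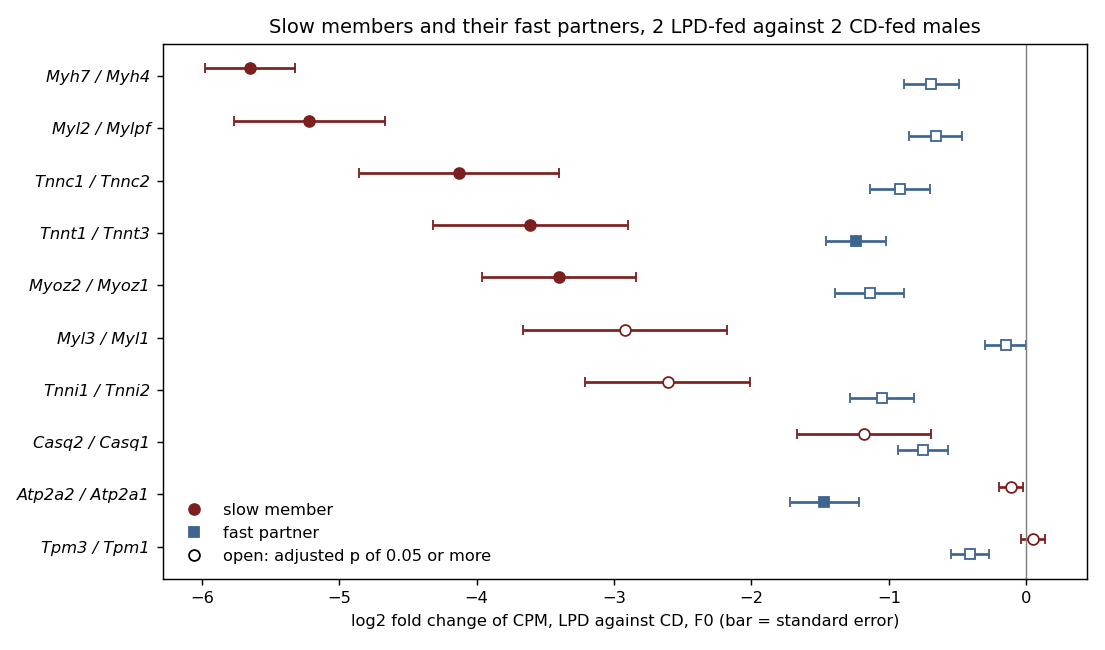
Log2 fold change of CPM, 2 LPD-fed against 2 CD-fed F0 males, for each slow gene (circles) and its fast partner (squares), with bars of 1 standard error and open symbols where the edgeR adjusted p was 0.05 or more. In 8 pairs the slow gene lies to the left of its partner, with Casq2 closest to it (-1.18 against -0.75). In the pairs of Atp2a2 and Tpm3 it lies to the right. The slow genes of the 8 pairs passed the filter on low counts through the CD-fed males alone, so they had to be lower to some degree.

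As a share of the summed RPKM of each pair, the slow gene was lower in both LPD-fed than in both CD-fed males in 8 of 10 pairs. The slow genes of these 8 pairs had passed the filter on low counts through the CD-fed males alone. Their levels therefore had to be lower in the LPD-fed males to some degree, and the count of 8 is a description. For Myh7 with Myh4 the slow share was 2.51% and 2.29% in the CD-fed and 0.0882% and 0.0557% in the LPD-fed males. The Myl2 share with Mylpf was 3.11% ± 0.235 in the CD-fed and 0.124% ± 0.0346 in the LPD-fed males (SD, n = 2 each). The Tnnc1 share with Tnnc2 was 4.11% ± 0.584 against 0.307% ± 0.434, and the Myoz2 share with Myoz1 was 5.66% ± 0.113 against 1.19% ± 0.0791. The Casq2 share with Casq1 moved least of the 8 as a ratio, from 4.70% ± 0.540 to 3.56% ± 0.193. In the remaining 2 pairs the share was higher in both LPD-fed males, at 46.9% ± 7.50 against 26.1% ± 6.83 for Atp2a2 with Atp2a1 and at 64.9% ± 3.33 against 57.3% ± 5.86 for Tpm3 with Tpm1. Uniquely matching reads gave 8 and 2 pairs in the same directions. These shares were not tested, since 2 mice against 2 cannot give a p below 0.333.

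A second scale was the number of reads per 10000 reads on the 12 genes common to all skeletal muscle fibres, which sets each gene against these 12 together. Most of their reads were on Ttn, 18398 of 28139 and 32347 of 50136 in the CD-fed males. In the LPD-fed males Ttn had 12249 of 19132 and 8133 of 13113. The scale therefore follows Ttn, whose own log2 fold change was -1.24 (SE 0.23, edgeR adjusted p = 0.0336). On this scale Myh7 had 55.8 and 44.9 reads in the CD-fed and 2.61 and 1.53 in the LPD-fed males, 22.5-fold lower over the summed reads. Myl2 was 18.1-fold lower, Tnnc1 8.44-fold, Tnnt1 5.56-fold, Myoz2 4.78-fold, Myl3 3.38-fold and Tnni1 2.78-fold lower on this scale. Casq2 had 3.91 and 3.59 in the CD-fed and 3.66 and 3.81 in the LPD-fed males, so these mice overlapped. Atp2a2 and Tpm3 were higher on this scale in both LPD-fed males, at 969 and 1344 against 670.2 and 440.2 for Atp2a2 and at 877 and 1155 against 564 and 328 for Tpm3. The folds of the genes with fewer than 10 reads in the LPD-fed males carry the counting error of those reads.

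**Figure D3:**
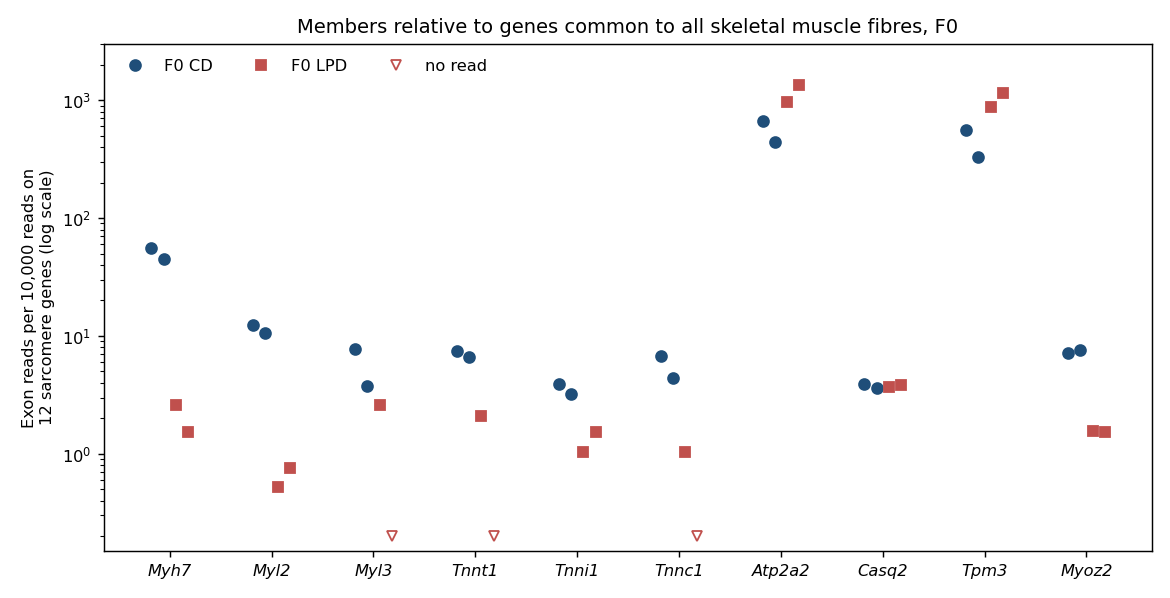
Exon reads of each gene per 10000 reads on 12 genes common to all skeletal muscle fibres (log axis) in the 4 F0 males, with circles for the CD-fed and squares for the LPD-fed males; open triangles at the lower edge stand for no read, which a log axis cannot show. In both LPD-fed males 7 genes lie lower, Casq2 lies between 3.59 and 3.91 in all 4, and Atp2a2 and Tpm3 lie higher in both LPD-fed males. The 7 genes and Casq2 passed the filter on low counts through the CD-fed males alone.

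The myosin heavy chains give the fibre types of the muscle RNA in these pads: Myh7 for slow, Myh2 for the oxidative fast IIa, Myh1 for IIx and Myh4 for IIb fibres. In the CD-fed males Myh7 made 1.65% and 1.44% of their summed RPKM, Myh2 11.4% and 16.2%, Myh1 22.9% and 20.9% and Myh4 64.0% and 61.5%. In the LPD-fed males Myh7 made 0.0783% and 0.050%, Myh2 2.54% and 1.86%, Myh1 8.66% and 8.41% and Myh4 88.7% and 89.7%. Both LPD-fed males therefore had lower shares of Myh7, Myh2 and Myh1 and a higher share of Myh4 than both CD-fed males. In the F0 fit across all genes Myh2 was down-regulated by 3.85 on the log2 scale (SE 0.38, edgeR adjusted p = 0.00373). Myh1 was down-regulated by 2.54 (SE 0.19, edgeR adjusted p = 0.0019), and both lay between Myh7 at -5.65 and Myh4 at -0.69. In F1, Myh1 made 16.3%, 22.0% and 18.5% with CD fathers and 5.29%, 6.75% and 14.3% in pLPD offspring. Myh4 made 79.7%, 76.1% and 79.8% against 92.2%, 88.4% and 82.2%. The F1 groups did not overlap in these 2 shares but overlapped in those of Myh7 and Myh2. These shares were not tested, and Myh1 was not called in F1 (log2 fold change -1.14, SE 0.49, edgeR adjusted p = 0.299). The adult myosins share stretches of sequence: 25.5% of the 36-base words of Myh7 occur in transcripts of other genes, 20.4% in the cardiac Myh6, which had at most 2 reads in any library. In Myh4 the share was 26.5%, mainly with Myh1 and Myh2.

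**Figure D4:**
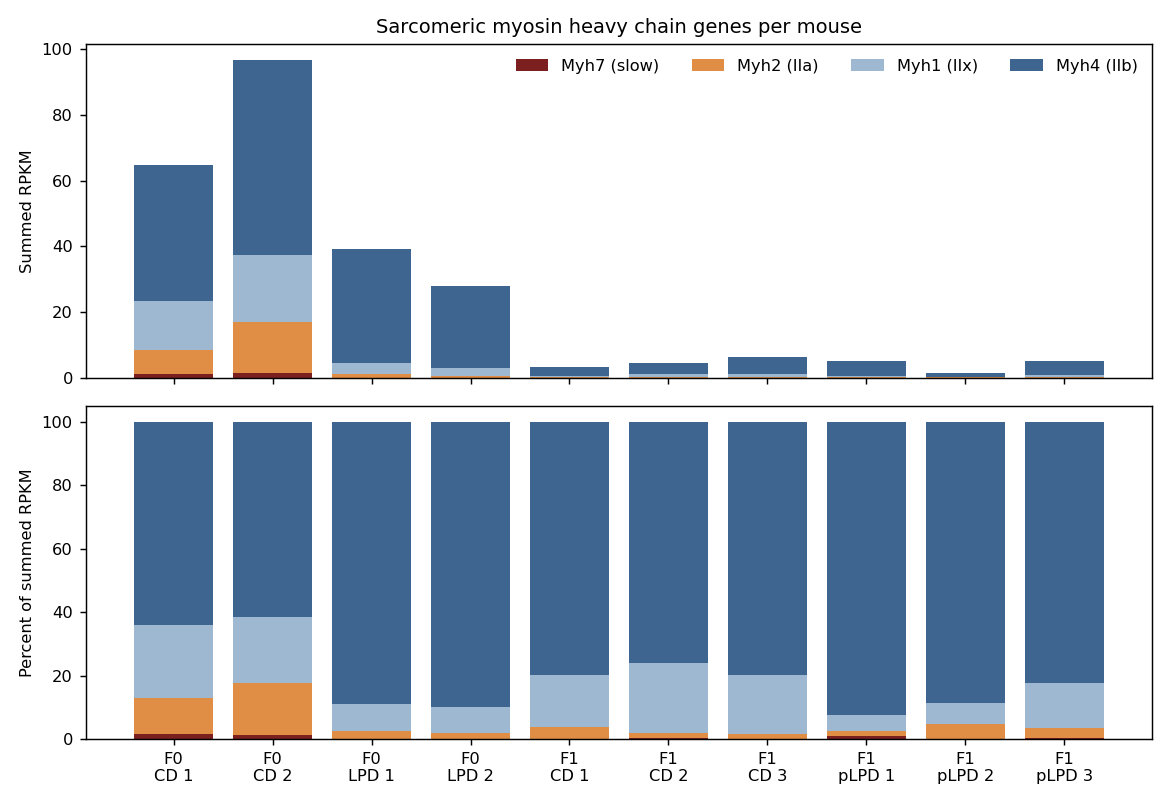
Myosin heavy chain genes per mouse, as stacked bars of RPKM (upper) and as percent of their summed RPKM (lower), for Myh7, Myh2, Myh1 and Myh4. The summed RPKM is 64.8 and 96.8 in the CD-fed and 39.1 and 28.0 in the LPD-fed F0 males and 1.46 to 6.26 in the F1 mice. Myh4 takes 61.5% to 64.0% in the CD-fed and 88.7% to 89.7% in the LPD-fed F0 males. In F1 it takes 76.1% to 79.8% with CD fathers and 82.2% to 92.2% in pLPD offspring.

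Other genes of the slow programme, from a list chosen with earlier results of these data known, were lower in part. Of 10 such genes 8 were tested in F0 and 4 were down-regulated in the LPD-fed males, with a median log2 fold change of -1.33 over the 8. Over all 14581 genes tested in F0, 1.32% were called lower, the share to set beside each count given here. Ankrd2, a stretch-responsive protein of slow fibres, had 17 and 26 reads in the CD-fed and 0 and 1 in the LPD-fed males (log2 fold change -5.04, SE 0.79, edgeR adjusted p = 0.0189). It passed the filter on low counts through the CD-fed males alone, so it had to be lower in the LPD-fed males to some degree. Mb, the oxygen-binding myoglobin, had 311 and 646 reads against 90 and 56 (-2.63, SE 0.30, edgeR adjusted p = 0.00669). Mybpc1, the slow myosin-binding protein C, had 378 and 760 against 125 and 85 (-2.35, SE 0.27, edgeR adjusted p = 0.00669). Csrp3, the muscle LIM protein, had 35 and 41 against 4 and 11 (-2.25, SE 0.45, edgeR adjusted p = 0.0435). The other 4, Pln, Fhl1, Smpx and Myl6b, had log2 fold changes from -0.40 to 0.06. Of 12 genes common to all fibres 10 were down-regulated in edgeR (7 in DESeq2 and 2 in limma; median -1.22), among them Actn2 by 2.53 (SE 0.28, edgeR adjusted p = 0.00627) and Des by 0.60 (SE 0.12, edgeR adjusted p = 0.0373). Of 8 further fast-fibre genes 4 were down-regulated, Myh1, Myh2, Tpm2 and Pvalb (median over the 8 -0.92).

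Genes that are known to set the slow programme were not called in the F0 males after the filter on low counts. Of 12 regulators, which include the coactivator Ppargc1a, the MEF2 factors and Nfatc1 and the repressor Sox6, 0 passed the threshold in edgeR, 2 had an unadjusted p under 0.05 (Vgll2 and Tbx15), and 0 passed in DESeq2 or limma. Without the filter 2 of the 12 passed in edgeR, Vgll2 lower and Tead1 higher in the LPD-fed males. Their median log2 fold change was 0.00. Vgll2, a cofactor of TEAD proteins, had 11 and 33 reads in the CD-fed and 5 and 0 in the LPD-fed males (-3.00, SE 0.86, edgeR adjusted p = 0.117). Ppargc1a had 176 and 231 reads against 127 and 165 (-0.40, SE 0.18, edgeR adjusted p = 0.343). Several of these regulators are also made by fat cells and other cells of the pad, so their levels are not those of muscle fibres alone.

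Markers of other cells were looked at because Myh7, Myl2, Myl3, Tnnc1 and Casq2 are also heart genes and because smooth muscle and brown fat share some of the programme. Of 10 heart genes 3 were tested in F0 and 0 were called in edgeR, DESeq2 or limma, 1 of them with an unadjusted p under 0.05 in edgeR. The heart-specific Nkx2-5 and Nppb had 0 reads in all 10 libraries, Myh6 had 0 to 2, and Nppa and Myl7 had 0 or 1. The heart list summed to 11.3 to 12.5 CPM in the CD-fed and 14.4 to 18.2 CPM in the LPD-fed males, most of it from Myl4 and Ryr2. Of 7 smooth muscle genes 1, Myh11, was lower in the LPD-fed males (-0.65, SE 0.10, edgeR adjusted p = 0.0164), and the list summed to 268 to 308 CPM against 212 to 215 CPM. Of 5 brown fat genes 4 were higher in edgeR and 0 passed in DESeq2 or limma; Ucp1 was higher by 2.89 on the log2 scale (SE 0.47, edgeR adjusted p = 0.0196), and the brown fat list summed to 112 to 238 CPM against 601 to 708 CPM. Among 7 adipocyte genes 0 were called in edgeR, DESeq2 or limma (2 at an unadjusted p under 0.05 in edgeR). Without the filter on low counts edgeR called 2 of the 7. Of the 6 immune and 4 endothelial genes, none passed in the same 3 fits, with 2 and 1 at an unadjusted p under 0.05 in edgeR. Without the filter edgeR called 1 immune and 0 endothelial genes. None of 5 epithelial genes had enough reads for the test. Of 7 myogenic genes only Myf6 was tested, with 14 and 22 reads against 11 and 7 (-0.92, SE 0.44, edgeR adjusted p = 0.362), and Myod1 had 3 and 7 against 2 and 1. The part of any of these cells in the slow-fibre differences was not tested, and the amount of muscle tissue in each pad cannot be told apart from the diet.

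The F1 comparison asked whether a father's LPD had left a mark in the iWAT of offspring that never ate it. None of the 10 slow-fibre genes was called between pLPD offspring and the offspring of CD fathers, where 1.02% of 14049 genes tested were lower and 0.142% higher. Only Atp2a2 and Tpm3 had enough reads to be tested. Neither had an unadjusted p under 0.05 in edgeR or DESeq2, and 1 of the 2 did in limma without passing after adjustment. Without the filter on low counts, 0 of all 10 passed in edgeR, where 2.53% of 22256 genes were called lower, and 0 had an unadjusted p under 0.05. In no gene were all 3 pLPD offspring on 1 side of all 3 offspring of CD fathers, an arrangement found in 10.9% of genes tested with the pLPD offspring lower and 9.21% with them higher. An exact two-sided permutation test could have given 0.1 at best with 3 mice against 3.

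Atp2a2 had 1895, 2229 and 2023 reads in F1 mice with CD fathers and 1701, 1691 and 1625 in pLPD offspring. On the CPM scale these were 261.9 ± 8.77 and 247.7 ± 16.3 (SD, n = 3 each), and the log2 fold change was -0.07 (SE 0.08, edgeR adjusted p = 0.738). Tpm3 had 1228, 1277 and 1200 reads against 1098, 1188 and 1017, at 158 ± 9.33 and 163 ± 4.97 CPM (log2 fold change 0.05, SE 0.08, edgeR adjusted p = 0.834). The groups overlapped in both genes.

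The sarcomere genes were at or near the limit of detection in the F1 mice. Myh7 had 0, 4 and 0 reads in F1 mice with CD fathers and 7, 0 and 3 in pLPD offspring, a ratio of summed reads of 2.89 with a 95% counting interval of 0.834 to 12.6. Myl2 had 3, 0 and 0 reads against 0 in each pLPD offspring, and Myoz2 had 0, 0 and 2 against 0 in each, so no fold can be given for either. Myl3 had 9, 4 and 4 reads against 0, 1 and 5, a ratio of 0.408 (0.132 to 1.08). Tnnt1 had 0, 4 and 4 against 5, 2 and 1, Tnni1 2, 4 and 1 against 1, 0 and 1, and Tnnc1 7, 7 and 5 against 1, 5 and 6. Casq2 had 4, 7 and 11 reads against 2, 9 and 2, a ratio of 0.683 (0.316 to 1.42). For the 6 of these sarcomere genes with reads in both groups, each counting interval covers a ratio of 1. No difference was therefore detected in them, and the intervals are wide at this depth.

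The fast and general muscle genes were also low in F1. After the filter on low counts, 0 of 9 fast partners and 0 of 9 general sarcomere genes passed in edgeR, DESeq2 or limma. In edgeR 1 and 0 of them had an unadjusted p under 0.05. Without the filter edgeR called 1 of 10 fast partners, Mylpf (log2 fold change -0.83, edgeR adjusted p = 0.0378), and 0 of 12 general genes. Over all 22256 genes then tested, 2.53% were called lower. Myh4 had 250 to 449 reads where the father ate the CD and 124 to 462 in pLPD offspring (log2 fold change 0.08, SE 0.38, edgeR adjusted p = 0.951). Of 11 regulators tested, Ppargc1a was up-regulated in pLPD offspring, with 140, 140 and 123 reads against 305, 199 and 211 (1.05, SE 0.18, edgeR adjusted p = 0.026; 0 of the 11 passed in limma). Ppargc1a is also a regulator of thermogenesis in fat cells. Of the other lists, 0 of 4 further slow genes and 0 of 8 further fast genes tested passed in edgeR, DESeq2 or limma. In edgeR 1 and 2 of them had an unadjusted p under 0.05. Without the filter edgeR called 1 of 10 further slow and 1 of 8 further fast genes. Acta2 of the smooth muscle list, Krt8 and Krt18 of the epithelial list and Adgre1 and Csf1r of the immune list were lower in pLPD offspring. None of the heart, adipocyte, brown fat and endothelial genes was called in edgeR, DESeq2 or limma after the filter. In edgeR 0, 0, 1 and 2 of them had an unadjusted p under 0.05. Without the filter edgeR called 1 brown fat and 1 endothelial gene, and 0 heart and 0 adipocyte genes. No myogenic gene passed the filter. Reads on introns made 34.9% to 36.3% of the reads on protein-coding genes where the father ate the CD and 39.3% to 46.6% in pLPD offspring, and the part of this difference in the F1 values was not tested.

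The interaction of generation and diet asked whether the diet effects of F0 and F1 differed. In the fit over all 10 libraries, 1 of the 10 members passed the threshold, Myh7 (7.10 on the log2 scale, SE 1.38, edgeR adjusted p = 0.0287), where 0.357% of 15111 genes were called with a higher effect in F1 and 0.893% with a lower one. Myh7 reached the level of the filter on low counts in the CD-fed F0 males alone, the group where it was high, so the call is a description and not support for a difference. The F1 side of this contrast rests on 4 and 10 reads in all, so the size is not well determined, and it ranged from 3.62 to 10.67 over the other settings. The call was lost on leaving out the second CD-fed or second LPD-fed F0 male, the first offspring of CD fathers or pLPD offspring 1 or 3, with adjusted p up to 0.166 in edgeR. Tnnc1 (3.67, SE 1.13, edgeR adjusted p = 0.156) and Tnnt1 (3.81, SE 1.41, edgeR adjusted p = 0.259) followed without passing. Among the other muscle genes Myh2 passed (4.01, SE 0.84, edgeR adjusted p = 0.0393).

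Genes outside the muscle lists were set against Myh7 by their levels over the 10 mice, and the nearest still differed by 1.06 log2 units. The measure was the root mean square difference of centred log2(CPM + 0.5) over the 10 mice, taken over the 14568 genes that averaged 1 CPM or more. Among the nearest were Cox6a2, a muscle and heart subunit of cytochrome c oxidase (1.06), Lmod2, which caps and lengthens thin filaments (1.07), and Nrap and Abra (1.12 each), all of striated muscle. Cox6a2 had 75 and 157 reads in the CD-fed and 34 and 21 in the LPD-fed males and 2 to 7 in the F1 mice, though only 30.8% of them matched uniquely. Lmod2 had 52 and 115 reads against 12 and 14, and 1 to 7 in F1. The nearest gene of all was Actn2 of the general list (0.94). Among the members, Atp2a2 stood at 2.02 and Tpm3 at 1.93, ranks 9958 and 5421, while the other 7 were below 1 CPM on average and were not ranked.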

How the data were processed

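RNA-seq of iWAT from 10 male mice was used, in the 4 groups and with the ages given above. The authors mapped the reads to mm10 with CLC Genomics Workbench, and the deposited count columns give raw reads per gene on exons, introns and junctions, with total and uniquely matching reads apart. How reads with several matches were placed is not given in the sources used here. The deposited RPKM values were computed by the authors from total exon reads, exon length and 1 library total, and the deposited TPM values, rescaled by the authors to a common sum per library, were not used. The members and all gene lists were chosen with earlier results of these data known, so no list is independent evidence.

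Total exon reads were tested in R 4.3.3 with edgeR 4.0.16 (filterByExpr with a minimum count of 10, TMM, quasi-likelihood F test, two-sided, Benjamini-Hochberg adjustment over all genes tested, threshold 0.05), in 1 fit per generation and, for the interaction, in all 10 libraries. The SE is the log2 fold change divided by the square root of F. DESeq2 1.42.0 and limma 3.58.1, on log2(RPKM + 0.1), served as alternatives. The filter let a gene in when at least 2 F0 libraries reached 1.08 CPM or at least 3 F1 libraries reached 1.39 CPM. Ratios of summed reads have exact 95% binomial intervals that cover counting error only, as does the floor of 3 reads. The scripts were tested on simulated data. Since 1 library stands for 1 mouse, p-values measure the spread between mice of a group. No 2 libraries held identical values. Promoter sequences are those of RefSeq on GRCm38.p6, the assembly that mm10 names. Named genes were the 10 members, their fast partners, the genes of other lists past the threshold or, where none passed, up to 3 of the most abundant, and the 5 genes nearest to Myh7 outside the muscle lists, of which 1 is not reported here; Vgll2, Tbx15, Tead1, Myod1, Tnnc1 on unique reads, the heart genes at or near 0, and the genes named as examples of a list were added after their values were seen. Leaving out each mouse in turn, other filters, read columns and normalizations, and the replicate number as a block were tried as alternatives.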

Additional observations from a re-analysis of the deposited data

Results flagged for a closer look

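The interaction of generation and diet in Myh7 was looked at again, because the diet effect in F0 and that in F1 differed by a test of the difference itself, in a fit that Myh7 entered through the CD-fed F0 males alone. The interaction was 7.10 on the log2 scale (edgeR adjusted p = 0.0287), with a log2 fold change of -5.65 in F0, where both LPD-fed males were below both CD-fed males, and overlapping groups in F1. In the F1 generation Myh7 had 4 reads over 3 offspring of CD fathers and 10 over 3 pLPD offspring. Generation, age and the set of libraries cannot be told apart in this contrast. Groups of 2 and 3 mice are too small for a test of single mice that stand apart.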

How the results depend on the processing

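The count of 5 down-regulated members in F0 was 3 with reads on the whole gene, 3 with limma on log2(RPKM + 0.1) and 3 with all 4 groups in 1 fit. It was 0 with at least 10 reads in every sample, which removes 8 of the 10 genes. In that order, these settings called 170 of 16670, 52 of 14581, 65 of 15111 and 197 of 13673 genes lower. The main fit called 192 of 14581 lower. Leaving out 1 mouse gave 2 to 5 called members in F0, in fits that assume a lone mouse to vary like the other group. The 1 member called in the interaction became 3 with the edgeR likelihood ratio test, 2 with limma and 0 with at least 10 reads in every sample, and 0 to 1 when 1 mouse was left out. No member was called in F1 under any alternative (count 0 throughout). The count of 8 pairs with a lower slow share, and the 9 (F0) and 0 (F1) genes at the smallest permutation p, did not move. In F0 both counts include the 8 members that passed the filter on low counts through the CD-fed males alone. With the replicate number as a block, 7 members were called in F0, 0 in F1 and 1 in the interaction. In F0 the block fit called 735 of 14581 genes lower, against 192 in the main fit. Same-numbered mice did not deviate together (correlations 0 to 0.049), so the block pairs nothing but numbers. Of 164 alternative values of single members, 137 kept their direction and side of the threshold, 16 lost the call, 7 gained it and 4 changed sign. The 4 were all Tpm3, near 0: -0.0049 on unique reads and -0.11 with limma in F1, and -0.0073 with limma and -0.0054 without the second CD-fed male in F0 (-0.0054 to 0.11 over the mice left out). The causes were not tested. Depth limits all genes but Atp2a2 and Tpm3, the more so in F1.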
